A study of Mus musculus with 8 samples.

Results

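Dense chains of distal open chromatin were examined in splenic conventional type 1 dendritic cells (cDC1) by ATAC-seq, an assay in which a transposase cuts and tags accessible DNA. A region was called distal when it lay more than 1 kb from both ends of every protein-coding gene model (RefSeq, GRCm38), and a chain was a run of at least 8 distal regions on chromosomes 1 to 19 in which each gap to the next distal region was at most 12500 bp. The rule used positions alone, apart from the peak calls that made the region set, and found 555 chains with 5837 regions, which were 12.7% of 45838 distal regions and 9.74% of the 59906 regions in the table. The 8 libraries came from cDC1 sorted from spleens of 2 groups. The OPA1KO group (n = 4) came from mice in which a Cre transgene driven by CD11c regulatory sequence acted on floxed Opa1, and the WT group (n = 4) from WT mice. CD11c is expressed by dendritic cells at large and by some other leukocytes, so deletion in such mice is not limited to cDC1. No treatment, age or sex was given in the labels, which also do not say whether animals were pooled, whether WT mice carried Cre, or which part of Opa1 was floxed.

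Most distal open regions of a cell are candidate enhancers, stretches of DNA bound by transcription factors that can raise transcription of a gene at a distance. Where many lie close together they are often described as stretch or super-enhancers, and such clusters are known to accumulate at genes that define a cell type, including its transcription factors. cDC1 take up dead cells, present their antigens to CD8 T cells and depend on the transcription factors IRF8 and BATF3 and on the receptor FLT3. OPA1 is a mitochondrial GTPase that fuses inner membranes and keeps cristae in shape. Accessibility alone does not show that a region acts as an enhancer, or on which gene.

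Total counts in regions ranged from 4660826 to 7590578 per library. Levels are given in CPM, a region's count per library total scaled with TMM factors, summed over the regions of a chain, and log2 fold changes are OPA1KO over WT with their standard errors. In these bulk libraries, accessibility in more cells and more accessibility per cell cannot be told apart. The labels do not tie libraries to animals, and spread between them, on which the p-values rest, may be technical only. Regions at the ends of 11 of 12 cDC1 marker genes were present and summed to 271 to 294 CPM in OPA1KO libraries and 251 to 285 CPM in WT libraries, with none at Itgae. Summed levels at the ends of 8 of 8 macrophage marker genes were 49.3 to 55.1 CPM in OPA1KO and 55.3 to 67.4 CPM in WT libraries and did not overlap. At 3 of 7 T cell marker genes the sums were 49.4 to 75.9 CPM in OPA1KO and 57.4 to 75.3 CPM in WT libraries, most of it at Cd3d (57.1 ± 11.3 CPM in OPA1KO and 56.3 ± 7.78 CPM in WT), with no region at the ends of Cd3e. At 3 of 5 B cell marker genes they were 30.4 to 36.4 CPM in OPA1KO and 32.6 to 42.2 CPM in WT, Cd79a among them, with none at Pax5. At 2 of 5 neutrophil marker genes the sums were 15.9 to 24.5 CPM in OPA1KO and 12.2 to 20.4 CPM in WT libraries, and Ly6g, Mpo and Elane had no region. At 1 of 4 NK cell marker genes the level was 2.72 to 6.26 CPM in OPA1KO and 1.43 to 4.22 CPM in WT, with no region at Ncr1. The sums of these 4 lists overlapped between the groups. Within the T cell list, Tcf7 was at 6.87 ± 0.619 CPM in OPA1KO and 4.96 ± 0.670 CPM in WT, without overlap. Cd4 was at 3.00 ± 1.22 CPM in OPA1KO and 4.17 ± 0.900 CPM in WT, with overlap. Groups did not overlap in 3.95% of all tested regions. The part of other cells in the results was not tested.

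Although every member lay away from the ends of protein-coding genes, 197 of the 5837 member regions (3.38%) overlapped a promoter window in RefSeq's table, which gives 250 bases before and 50 bases after the start of 1 transcript per gene. Of these, 119 overlapped a window of a protein-coding gene, in each case at a transcript start inside that gene's own model, and 90 overlapped a window of a long noncoding RNA. Members with a window had a median level of 19.3 CPM and members without one 7.83 CPM. Named chains were not examined on every chromosome for windows under their highest region. Of the named chains examined, with the chain of the highest member added, 8 had such a window there. Of these windows, 5 held 21 to 43 CG dinucleotides and no match to the motifs given next. The other 3 held 3 to 5 CG dinucleotides and at least 1 match. To set both kinds side by side, the pair without matches whose regions had the highest levels and the 3 with matches are given, chosen after their contents were seen and written 5′ to 3′ on the strand of the gene (RefSeq, GRCm38.p6). Capitals mark matches on either strand to 6 motifs: GGAAGT (the core of sites of ETS factors such as PU.1), TGANTCA (AP-1, the site of FOS, JUN and BATF dimers), TGACGTCA (CRE, the cAMP response element), GAANNGAAA (IRF), TTGCNNAA (C/EBP) and CACGTG (E-box). The windows are that of Gm36459 on the minus strand at chr9:64811316-64811615 in the Dennd4a chain, that of Chaserr on the minus strand at chr7:73558346-73558645 in the Chd2 chain, that of Mirt1 on the minus strand at chr19:53464747-53465046 between Smndc1 and Dusp5, that of Gm51814 on the plus strand at chr10:19062529-19062828 near Tnfaip3, and that of Dock10 on the minus strand at chr1:80665303-80665602.
Gm36459: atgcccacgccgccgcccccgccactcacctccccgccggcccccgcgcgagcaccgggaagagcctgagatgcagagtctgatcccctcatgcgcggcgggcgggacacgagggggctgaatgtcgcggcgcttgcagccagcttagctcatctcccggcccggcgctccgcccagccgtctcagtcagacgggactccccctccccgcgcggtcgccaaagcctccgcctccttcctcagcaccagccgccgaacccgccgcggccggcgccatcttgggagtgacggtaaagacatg
Chaserr: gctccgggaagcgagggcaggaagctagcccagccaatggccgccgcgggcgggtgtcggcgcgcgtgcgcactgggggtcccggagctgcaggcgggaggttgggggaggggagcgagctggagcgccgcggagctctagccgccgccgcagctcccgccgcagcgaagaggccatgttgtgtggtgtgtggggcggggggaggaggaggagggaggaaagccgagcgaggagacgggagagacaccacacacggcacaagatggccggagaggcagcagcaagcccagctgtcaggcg
Mirt1: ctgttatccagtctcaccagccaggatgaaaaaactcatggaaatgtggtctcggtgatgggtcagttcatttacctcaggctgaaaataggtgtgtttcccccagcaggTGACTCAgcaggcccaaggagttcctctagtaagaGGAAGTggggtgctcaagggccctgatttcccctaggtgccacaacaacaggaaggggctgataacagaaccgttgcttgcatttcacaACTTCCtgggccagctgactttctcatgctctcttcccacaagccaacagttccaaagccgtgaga
Gm51814: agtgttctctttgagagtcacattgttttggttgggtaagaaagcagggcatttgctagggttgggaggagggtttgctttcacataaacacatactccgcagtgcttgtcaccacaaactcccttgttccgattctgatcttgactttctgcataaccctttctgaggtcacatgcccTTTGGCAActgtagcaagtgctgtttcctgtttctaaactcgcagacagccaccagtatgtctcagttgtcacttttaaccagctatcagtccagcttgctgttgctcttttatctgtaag
Dock10: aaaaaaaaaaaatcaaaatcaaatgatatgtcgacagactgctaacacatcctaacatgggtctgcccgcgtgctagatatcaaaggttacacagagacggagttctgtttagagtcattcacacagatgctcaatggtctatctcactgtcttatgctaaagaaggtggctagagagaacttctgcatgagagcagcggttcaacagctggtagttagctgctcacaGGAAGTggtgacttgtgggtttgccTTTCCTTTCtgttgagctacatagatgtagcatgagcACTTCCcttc

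The first pair of windows held 37 and 30 CG dinucleotides and no match to the 6 motifs, against a median of 7 CG dinucleotides over all 32851 windows of the table. The Mirt1 window held 3 CG dinucleotides, 1 AP-1 match and 2 ETS matches, the Gm51814 window 3 CG dinucleotides and 1 C/EBP match, and the Dock10 window 5 CG dinucleotides, 2 ETS matches and 1 IRF match. Over all windows, 23.8% held GGAAGT, 7.81% TGANTCA, 1.79% TGACGTCA, 7.52% GAANNGAAA, 10.8% TTGCNNAA and 7.15% CACGTG. The region over the Gm36459 window, which also reaches a Dennd4a start, had the highest level of all members, 265 ± 28.1 CPM in OPA1KO and 272 ± 45.2 CPM in WT libraries (SD, n = 4 each). The region over the window of Chaserr, a noncoding RNA next to the chromatin remodeller gene Chd2, was at 184 ± 8.04 CPM in OPA1KO and 176 ± 16.3 CPM in WT. At the windows with ETS, AP-1, C/EBP or IRF matches, the levels were 122 ± 27.3 CPM in OPA1KO and 113 ± 30.5 CPM in WT for Mirt1, 100.7 ± 3.97 CPM in OPA1KO and 111 ± 14.4 CPM in WT for Gm51814, and 19.8 ± 4.31 CPM in OPA1KO and 19.3 ± 2.37 CPM in WT for Dock10. None of these 5 regions passed the test between groups, with edgeR adjusted p-values from 0.855 to 0.992.

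Chains held 8 to 32 regions, with a median of 10 and a median span of 43.7 kb (17.8 to 142.55 kb). Of the 555 chains, 155 lay within 1 gene model, 192 over part of 1, 92 over parts of several and 116 between gene models. All 19 chromosomes held chains, from 8.38% of the distal regions of chromosome 3 to 20.4% of those of chromosome 19. Summed levels ranged from 27.2 to 797 CPM with a median of 120 CPM. A single region usually carried much of a chain: the highest one held a median of 27.0% of the summed level (11.6% to 77.5%). That share was 62.3% in the chain at Arhgap25, a GTPase-activating protein for Rac, and 61.7% at Dennd4a.

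Regions in chains stood higher than other distal regions in each of the 8 libraries. The median level of members over that of other distal regions was 1.49, 1.55, 1.56 and 1.44 in OPA1KO replicates 1 to 4 and 1.39, 1.64, 1.42 and 1.47 in WT replicates 1 to 4, a ratio above 1 in 8 of 8 libraries (two-sided exact sign-flip permutation p = 0.0078, the smallest that 8 libraries allow). All libraries scored the same regions, so the sign-flip p-value measures agreement between libraries and not spread among regions or chains. The ratio of members to other distal regions did not differ detectably between the groups (exact permutation p = 0.629, with 0.0286 the smallest 4 against 4 allow). Level followed the length of the run. Median levels per library were 7.60 to 8.41 CPM in chains of at least 8 regions, 6.54 to 6.89 CPM in runs of 4 to 7, 5.14 to 5.58 CPM in runs of 2 or 3, and 4.36 to 4.86 CPM for distal regions alone. Region width moved with it, with medians of 326, 315, 297 and 284 bp in the same order, and its part in the levels was not tested. Members lay inside a gene model about as often as other distal regions, at 54.8% against 54.7%.

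**Figure D1:**
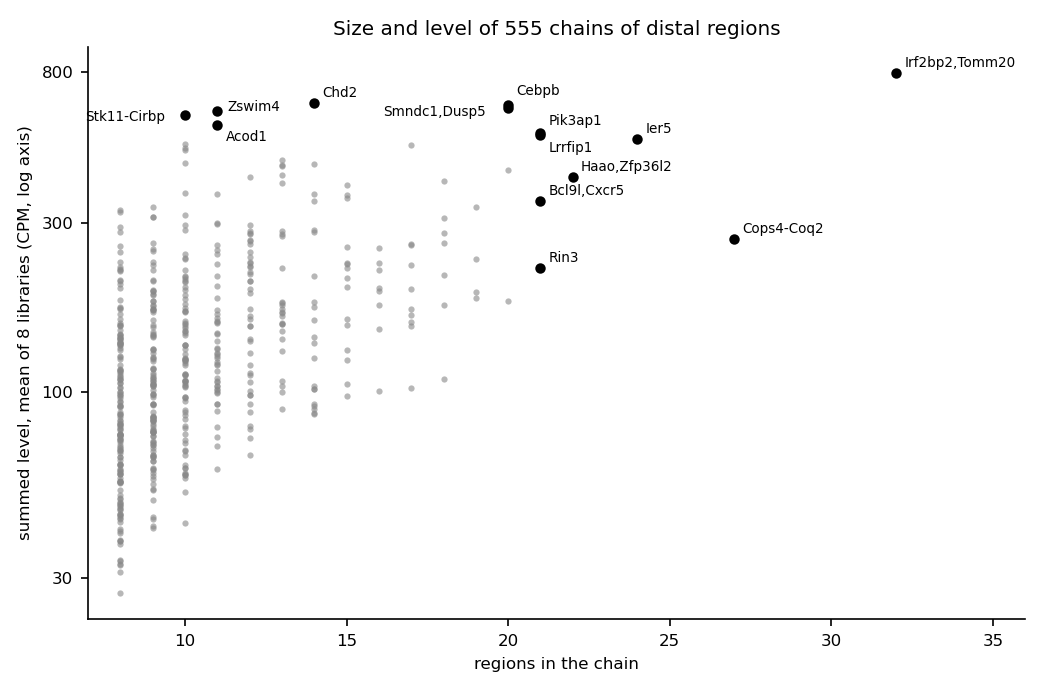
Number of regions (x axis) against summed level in CPM as the mean of 8 libraries (y axis, log) for each of the 555 chains. Black points are the chains with the most regions or the highest summed levels, and the chain between Irf2bp2 and Tomm20 stands highest on both axes, with 32 regions and 797 CPM.

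The longest and highest chain lay between Irf2bp2, which encodes a co-repressor of transcription active in macrophages and other cells, and Tomm20, which encodes an import receptor of the outer mitochondrial membrane (chr8:126778664-126921211, 32 regions over 142.55 kb). It ended 9.45 kb from the Tomm20 model and 185 kb from that of Irf2bp2. Its summed level was 846, 843, 889 and 636 CPM in OPA1KO libraries and 639, 979, 728 and 818 CPM in WT libraries. OPA1KO replicate 4 and WT replicate 1 were lowest, WT replicate 2 was highest and the groups overlapped (log2 fold change 0.02 ± 0.12, edgeR adjusted p = 0.991). Along the chain, 5 regions exceeded 50 CPM, and the rest ranged down to 1.13 CPM. The highest, at chr8:126849412-126850285, held 13.0% of the sum and was at 110, 126, 113 and 66.2 CPM in OPA1KO and 73.7, 135, 93.2 and 113 CPM in WT libraries. Of the 31 regions tested, 15 had log2 fold changes above 0 and 16 below.

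**Figure D2:**
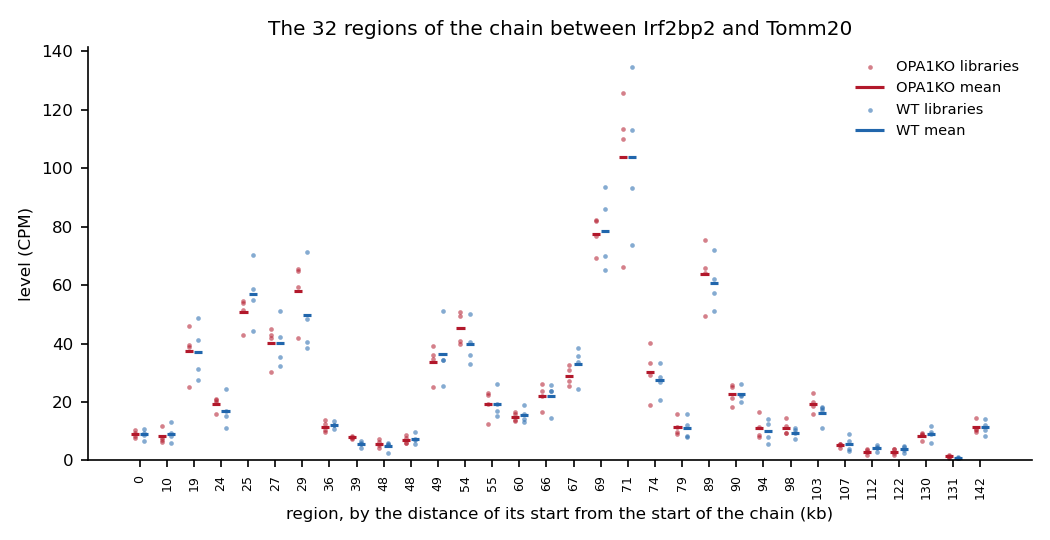
Level in CPM (y axis) of each of the 32 regions of the chain between Irf2bp2 and Tomm20, ordered by distance from the start of the chain in kb (x axis). Points are libraries and bars are means of 4, OPA1KO left of WT for each region, and the means of the highest region, 104 CPM in both groups, coincide.

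Next in size were chains at Cops4, Plac8 and Coq2 (27 regions, chr5:100526182-100667177), Ier5 (24 regions), between Haao and Zfp36l2 (22 regions), and at Lrrfip1, Pik3ap1, Rin3 and from Bcl9l to Cxcr5 (21 regions each). COQ2 is an enzyme of coenzyme Q synthesis, IER5 an immediate early protein, ZFP36L2 an mRNA-decay factor, LRRFIP1 a cytosolic nucleic acid sensor, PIK3AP1 an adaptor of phosphoinositide 3-kinase, RIN3 an activator of the endosomal GTPase RAB5, and CXCR5 a chemokine receptor. The chain at Cops4, Plac8 and Coq2 was at 274, 281, 280 and 299 CPM in OPA1KO libraries and 245, 289, 261 and 241 CPM in WT libraries, with 19 of 27 regions above 0 (log2 fold change 0.13 ± 0.08, edgeR adjusted p = 0.831). Only WT replicate 2 reached the OPA1KO range there. The Ier5 chain was at 531, 553, 533 and 496 CPM in OPA1KO and 474, 577, 466 and 519 CPM in WT libraries, which overlapped (0.05 ± 0.08, edgeR adjusted p = 0.955). Across the 10 chains with the most regions, log2 fold changes ran from −0.06 at Lrrfip1 to 0.13 at Cops4, Plac8 and Coq2.

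High summed levels also occurred in shorter chains. The chain at Chd2 reached 655 ± 37.9 CPM in OPA1KO and 655 ± 59.2 CPM in WT libraries with 14 regions, and that at Zswim4 reached 621 ± 83.7 CPM in OPA1KO and 623 ± 129 CPM in WT libraries with 11. The chain from Stk11, which encodes the kinase LKB1, to Cirbp, which encodes a cold-inducible RNA-binding protein, had the highest level per region at 60.6 CPM (599 ± 47.4 CPM in OPA1KO and 614 ± 78.3 CPM in WT, 10 regions). At Acod1, whose enzyme makes itaconate in activated myeloid cells, 11 regions summed to 602, 576, 637 and 446 CPM in OPA1KO libraries and 444, 760, 508 and 590 CPM in WT libraries. OPA1KO replicate 4 and WT replicate 1 were again lowest and WT replicate 2 highest. The lowest level per region, 3.40 CPM, was in a chain inside Igf1r, the receptor gene for insulin-like growth factor 1 (25.1 ± 3.77 CPM in OPA1KO and 29.3 ± 2.54 CPM in WT).

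The comparison of OPA1KO with WT called 0 of 555 chains in edgeR's quasi-likelihood test at an adjusted p of 0.05, where 0.0301% of all 36546 summed units of the table were called. The smallest adjusted p among chains was 0.239. At an unadjusted p under 0.05 there were 23 chains (4.14%), against 6.73% of all units. Of these chains, 15 were higher and 8 lower, where 2.72% of all units were higher and 4.01% lower. DESeq2 also called 0 chains with 18 at an unadjusted p under 0.05 (5.65% of all units), and limma-voom 0 with 20 (6.7% of all units). The 4 OPA1KO and 4 WT libraries did not overlap in 10 chains (1.80%), against 4.21% of all units, with 8 chains higher and 2 lower in OPA1KO where 1.79% of all units were higher and 2.42% lower. Of the 555 chains, 333 had log2 fold changes above 0 and 222 below, with a median of 0.02, against a median of −0.01 over all units. The median standard error was 0.10. The 95% interval of the fold change, from a normal approximation, lay within 1.5-fold in either direction in 552 of 555 chains. Such intervals are narrower than the quasi-likelihood test implies. With gaps of at most 10000 bp, 12 of 334 chains had an unadjusted p under 0.05, against 6.72% of all units of that setting, and with at least 10 regions 9 of 278 chains did, against 6.73%. With the replicate number as a block 16 chains did, against 5.49% of all units. Without WT replicate 2, edgeR called 2 chains, those between Nol10 and Odc1 and at Il10, against 0.199% of all units, and 62 chains passed an unadjusted p of 0.05, against 9.29% of all units.

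Single member regions gave the same picture. edgeR called 0 of 5804 tested members at an adjusted p of 0.05, where 0.0203% of all 59247 tested regions were called, and the low-count filter removed the other 33 members. At an unadjusted p under 0.05 there were 345 members (5.94%), against 6.38% of all tested regions, and the groups did not overlap in 194 members (3.34%), against 3.95%. limma-voom called 0 members, and DESeq2 called 2 (0.0641% of all regions), 1 in the Enpp1 chain (adjusted p = 0.0134) and 1 at chr2:73534793-73535215 in the chain at Wipf1 and Chrna1 (adjusted p = 0.0491). Without WT replicate 2, edgeR called 3 members, in the chains at Enpp1, between Nol10 and Odc1, and between Slc7a11 and Noct, against 0.114% of all regions.

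**Figure D3:**
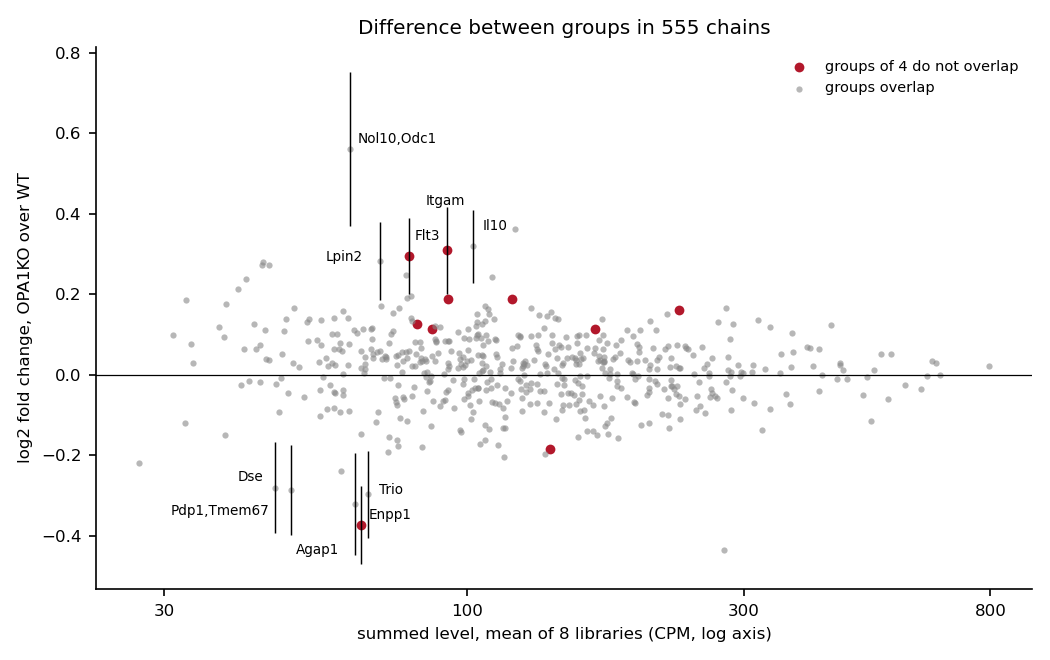
Log2 fold change of OPA1KO over WT (y axis) against summed level in CPM as the mean of 8 libraries (x axis, log) for each of the 555 chains. Red points are the 10 chains in which the groups of 4 did not overlap, bars are standard errors of the 10 named chains, and 420 chains lie within 0.1 of 0.

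The chain with the smallest p lay over part of Enpp1, which encodes an ectonucleotidase that hydrolyses extracellular ATP and cGAMP (chr10:24621644-24651495, 9 regions). Its summed level was 54.6, 57.6, 49.7 and 66.6 CPM in OPA1KO libraries and 72.4, 69.97, 76.6 and 76.9 CPM in WT libraries. Each OPA1KO library lay below each WT library, and the difference did not pass the test (log2 fold change −0.37 ± 0.10, edgeR adjusted p = 0.239). The difference was concentrated in neighbouring regions just outside the gene model. At chr10:24634270-24634662, the Enpp1 chain had 4.84, 7.43, 4.16 and 4.26 CPM in OPA1KO and 11.4, 7.48, 16.9 and 14.7 CPM in WT libraries (−1.29 ± 0.25, edgeR adjusted p = 0.0607), with OPA1KO replicate 2 just under WT replicate 2. The next region, at chr10:24635309-24635831, was at 9.32 ± 1.248 CPM in OPA1KO and 14.04 ± 1.04 CPM in WT (−0.59 ± 0.19, edgeR adjusted p = 0.484). The 7 other regions at Enpp1 ran from −0.67 to 0.10.

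At Il10, the gene of the anti-inflammatory cytokine interleukin 10, the chain of 14 regions (chr1:130979505-131046969) was at 118, 114, 118 and 103 CPM in OPA1KO libraries and 85.4, 105, 89.0 and 85.0 CPM in WT libraries. OPA1KO replicate 4 and WT replicate 2 overlapped (log2 fold change 0.32 ± 0.09, edgeR adjusted p = 0.329). Its highest region, at chr1:131037979-131038561, held 43.6% of the Il10 chain and was at 47.5 ± 4.96 CPM in OPA1KO and 41.7 ± 7.61 CPM in WT (0.19 ± 0.12). The low regions at the other end differed more: of the 8 regions from chr1:130979505 to the gene, 7 had log2 fold changes from 0.42 to 1.04 and 1 was at −0.09. Where distal was set at over 2 kb from gene ends, those 8 regions formed a chain of their own at Il10, the only chain called with that setting, in which 0.0311% of all units were called. It was at 33.6, 31.9, 30.6 and 28.04 CPM in OPA1KO libraries and 20.1, 19.8, 17.9 and 17.9 CPM in WT libraries, which did not overlap (0.71 ± 0.13, edgeR adjusted p = 0.0294 over all units of that setting). Without WT replicate 2, the WT library nearest to OPA1KO, the whole Il10 chain passed the test at 0.39 (edgeR adjusted p = 0.0377). With each library left out in turn, its log2 fold change ran from 0.29 to 0.39. The edgeR adjusted p ran from 0.0377 to 0.998.

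Between Nol10, a nucleolar protein gene, and Odc1, which encodes ornithine decarboxylase, the rate-limiting enzyme of polyamine synthesis, 8 regions (chr12:17486429-17531165) showed the largest positive difference of all chains. The sums were 67.7, 78.5, 76.3 and 77.7 CPM in OPA1KO libraries and 50.0, 74.0, 32.5 and 45.2 CPM in WT libraries. WT replicate 2 lay inside the OPA1KO range and the other WT libraries below it (log2 fold change 0.56 ± 0.19, edgeR adjusted p = 0.58). All 8 of its regions had positive log2 fold changes, from 0.31 to 0.88. Without WT replicate 2, the WT library nearest to OPA1KO, the value was 0.81 (edgeR adjusted p = 0.000126). With each library left out in turn, the log2 fold change ran from 0.42 to 0.81. The edgeR adjusted p ran from 0.000126 to 0.998.

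Flt3 encodes the receptor whose ligand drives dendritic cell development. Its chain of 10 regions inside the gene (chr5:147339056-147393041) was at 82.9, 84.7, 86.1 and 95.9 CPM in OPA1KO libraries and 80.1, 64.0, 66.2 and 74.2 CPM in WT libraries. Each OPA1KO library lay above each WT library and the chain did not pass the test (log2 fold change 0.29 ± 0.09, edgeR adjusted p = 0.424). Of its 10 regions, 8 were above 0, up to 0.92 at chr5:147340910-147341234 in Flt3, which was at 6.34 ± 0.918 CPM in OPA1KO and 3.29 ± 1.60 CPM in WT.

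The chain over part of Itgam, the gene of the integrin CD11b, lies next to Itgax, whose regulatory sequence drives the Cre transgene. Its 8 regions (chr7:128048749-128089511) summed to 107, 94.98, 110 and 95.6 CPM in OPA1KO libraries and 60.8, 90.8, 88.4 and 90.4 CPM in WT libraries. The groups did not overlap, and WT replicate 1 stood far below the other WT libraries (log2 fold change 0.31 ± 0.11, edgeR adjusted p = 0.496). Without WT replicate 1 the log2 fold change was 0.19. Outside the chain, the highest region at the Itgam gene ends was at 23.5 ± 3.97 CPM in OPA1KO and 14.4 ± 1.60 CPM in WT, without overlap. That at the Itgax gene ends was at 30.8 ± 3.49 CPM in OPA1KO and 22.3 ± 4.63 CPM in WT, with overlap. The Cre line is not identified further in the labels and DNA copy number at this locus was not measured, so accessibility and copy number cannot be told apart here.

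The other chains with the smallest p in each direction did not pass the test. Lpin2, a phosphatidate phosphatase gene, was at 77.5, 81.9, 66.8 and 84.8 CPM in OPA1KO and 69.9, 58.3, 62.4 and 64.4 CPM in WT libraries, with 10 of 11 regions above 0 (log2 fold change 0.28 ± 0.10, edgeR adjusted p = 0.485). Trio, a guanine nucleotide exchange factor gene, was at 64.3, 58.7, 50.1 and 69.2 CPM in OPA1KO and 80.7, 61.6, 82.5 and 73.2 CPM in WT libraries (−0.30 ± 0.11, edgeR adjusted p = 0.537). Agap1, a GTPase-activating protein gene for Arf GTPases, was at 72.8, 52.9, 57.9 and 43.5 CPM in OPA1KO and 58.4, 78.7, 73.2 and 74.6 CPM in WT libraries, with 0 of 9 regions above 0 (−0.32 ± 0.13, edgeR adjusted p = 0.627, and −0.21 without OPA1KO replicate 4). In these 3 chains the groups overlapped. Between Pdp1, the gene of a pyruvate dehydrogenase phosphatase of mitochondria, and Tmem67, the sums were 44.4, 46.0, 42.2 and 46.7 CPM in OPA1KO and 63.4, 46.6, 61.8 and 47.0 CPM in WT libraries (−0.29 ± 0.11, edgeR adjusted p = 0.595). Its highest region, at chr4:12009193-12009565, was at 8.54 ± 1.07 CPM in OPA1KO and 14.3 ± 3.43 CPM in WT, and without it the Pdp1 and Tmem67 chain was at −0.16. Dse, the gene of dermatan sulfate epimerase, was at 42.5, 34.8, 43.3 and 47.6 CPM in OPA1KO and 54.9, 42.9, 53.2 and 54.0 CPM in WT libraries (−0.28 ± 0.11, edgeR adjusted p = 0.617).

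**Figure D4:**
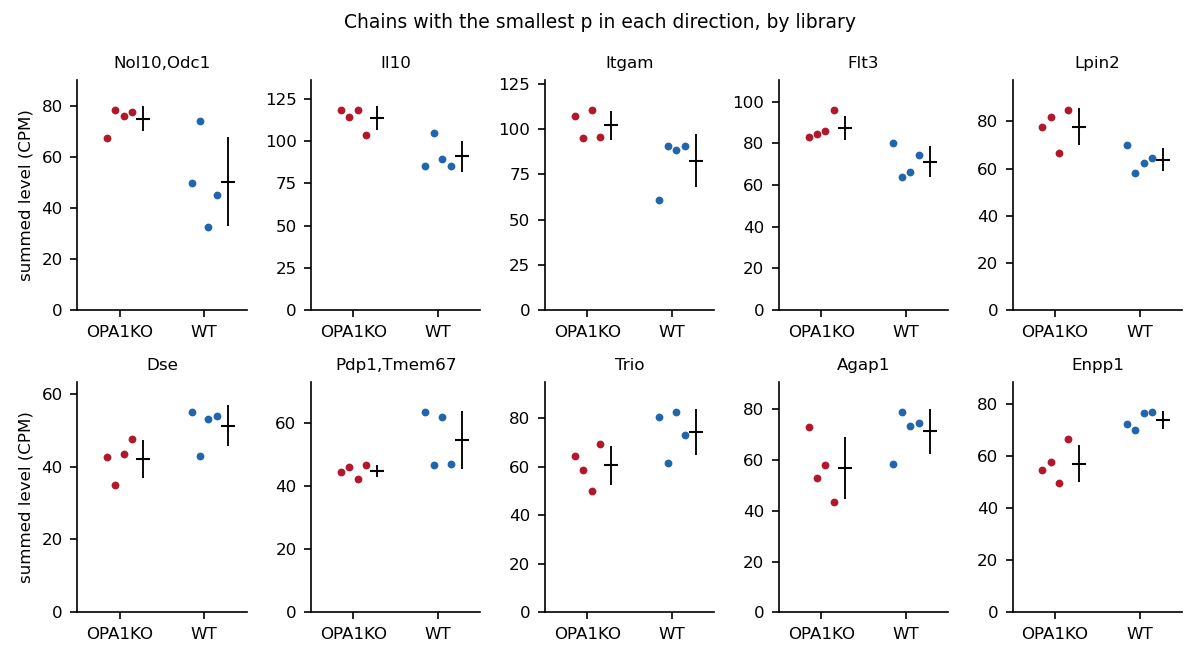
Summed level in CPM (y axis, from 0) of the 5 chains with the smallest p in each direction, OPA1KO left and WT right. Points are libraries and the bars beside them are mean ± SD of 4, and the groups do not overlap at Itgam, Flt3 and Enpp1.

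In 6 chains every tested region had the same sign, and these were singled out after their values were seen. Beside the chains at Nol10 and Odc1 and at Agap1 they were the 10 regions between the chemokine genes Ccl6 and Ccl3 (136 ± 27.0 CPM in OPA1KO and 106 ± 21.7 CPM in WT, log2 fold change 0.36 ± 0.16, edgeR adjusted p = 0.725), the chains inside Ripor2 (0.11 ± 0.11) and Rpgrip1 (0.27 ± 0.11), and the chain inside Cd36, the scavenger receptor gene (−0.20 ± 0.11). Elsewhere the regions of a chain differed in sign. Further chains whose groups did not overlap included those at Nrros and Bex6, at −0.18, and at Ptprc, Cdc14a, Aff1, Cbfa2t3 and between Gpcpd1 and Shld1, from 0.11 to 0.19. Cbfa2t3 encodes a transcriptional co-repressor of blood cells, and its chain was at 95.9, 100, 98.7 and 100 CPM in OPA1KO libraries and 91.1, 92.6, 88.6 and 74.4 CPM in WT libraries.

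Of genes on the chromosomes searched, 732 of 20661 (3.54%) named a chain by overlap or as its nearest neighbour. On a list of 35 transcription factors of dendritic cells, 17 genes named 20 chains (48.6% of the genes). This list and those below were chosen with earlier results of these data known, and genes were not matched for length or spacing. Their shares were not tested against that of all genes. None of the 20 chains was called, 13 were above 0 and 7 below, and the median log2 fold change was 0.04, against 0.02 over all chains. Fos, an AP-1 subunit gene, had 20 regions at 429, 464, 465 and 416 CPM in OPA1KO and 364, 467, 371 and 426 CPM in WT libraries (0.12 ± 0.09, edgeR adjusted p = 0.859), and Cebpb, the gene of the myeloid factor C/EBPβ, had 20 regions at 652 ± 133 CPM in OPA1KO and 639 ± 151 CPM in WT (0.03 ± 0.19). Etv6, an ETS repressor gene needed in blood stem cells, held 3 separate chains of 9, 15 and 13 regions, at 109 ± 8.64, 109 ± 10.6 and 174 ± 17.6 CPM in OPA1KO and 111 ± 8.98, 102 ± 3.16 and 164 ± 10.4 CPM in WT. The gene Zfp366, which encodes the dendritic cell repressor DC-SCRIPT, had the largest value on the list, at 47.1, 49.8, 46.5 and 52.0 CPM in OPA1KO and 49.7, 30.9, 39.2 and 40.9 CPM in WT libraries (0.28 ± 0.12, edgeR adjusted p = 0.658, and 0.17 without WT replicate 2). Fli1, an ETS activator gene, had the lowest, at −0.14 ± 0.09 (153 ± 6.23 CPM in OPA1KO and 169 ± 19.5 CPM in WT), and was at −0.05 without WT replicate 2. Id2, Bcl6, Cebpa, Ikzf1, Runx3, Nfkb1, Bach2, Prdm1, Mef2c, Foxp1 and Nr4a1 named the other chains with Batf3.

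Of the 12 cDC1 marker genes, 1 named a chain. Batf3, needed for cDC1 development, had 8 regions at 76.2, 74.0, 81.6 and 82.5 CPM in OPA1KO libraries and 67.3, 69.97, 69.8 and 75.5 CPM in WT libraries (log2 fold change 0.15 ± 0.09, edgeR adjusted p = 0.79), where WT replicate 4 overlapped the OPA1KO range. Irf8, Xcr1 and Clec9a named none. From the cDC2 and monocyte list, 3 of 8 genes did, among them Itgam and Sirpa, the gene of an inhibitory receptor of myeloid cells (201 ± 19.997 CPM in OPA1KO and 208 ± 39.8 CPM in WT). The red cell gene Tal1 named a chain of 9 regions shared with Stil and Pdzk1ip1 (57.5 ± 6.14 CPM in OPA1KO and 58.7 ± 1.22 CPM in WT). The macrophage, pDC, B cell, T cell, NK cell and neutrophil lists named 0 chains.

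Genes of actin control, adhesion and signalling named 19 chains through 16 of 30 genes (53.3%), of which 13 were above 0 and 6 below, with a median of 0.03 and values from −0.07 to 0.12. Ptprc, the gene of the phosphatase CD45, had 11 regions at 174, 175, 171 and 172 CPM in OPA1KO libraries and 149, 170, 159 and 162 CPM in WT libraries, which did not overlap (0.11 ± 0.08, edgeR adjusted p = 0.864). Between Cd44, which encodes a hyaluronan receptor, and Pdhx, a pyruvate dehydrogenase subunit gene, 19 regions were at 347 ± 35.6 CPM in OPA1KO and 319 ± 50.2 CPM in WT (0.12 ± 0.10), and 16 of them were above 0. Elmo1 and Dock10 encode activators of Rac and Cdc42 in cell movement. The Elmo1 chain and the longer of 2 Dock10 chains had 162 ± 10.2 and 77.3 ± 11.03 CPM in OPA1KO and 151 ± 18.4 and 71.7 ± 8.28 CPM in WT. Cytokine, receptor and antigen presentation genes named 8 chains through 9 of 20 genes (45%), 4 above 0 and 4 below with a median of 0.01, and Il10 and Flt3 were the largest. The class II chain at H2-Ab1, H2-Aa and H2-Eb1 was at 364 ± 20.5 CPM in OPA1KO and 360 ± 32.3 CPM in WT (0.02 ± 0.08), that at Cd74, the invariant chain gene, at 117 ± 7.89 CPM in OPA1KO and 121 ± 8.27 CPM in WT, and that near Tnfaip3, which encodes the NF-κB inhibitor A20, at 228 ± 4.88 CPM in OPA1KO and 232 ± 12.7 CPM in WT.

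The share of a library's counts that fell in chains was 8.74%, 8.54%, 8.74% and 7.97% in OPA1KO replicates 1 to 4 and 7.70%, 9.11%, 8.09% and 8.36% in WT replicates 1 to 4. WT libraries held both the lowest and the highest share. The difference of 0.18 percentage points was smaller than the spread between replicates (two-sided exact permutation p = 0.6), and it was −0.02 without WT replicate 1. At gene ends the share was 51.2 ± 0.553% in OPA1KO and 51.7 ± 0.302% in WT libraries.

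Most of the variation among chains ran between libraries of both groups. The first component of the log2 chain sums held 68.2% of the variance, with scores of 0.21, 0.06, 0.27 and −0.49 in OPA1KO replicates 1 to 4 and −0.47, 0.58, −0.25 and 0.09 in WT replicates 1 to 4. It placed OPA1KO replicate 4 beside WT replicate 1 at one end and WT replicate 2 at the other (exact permutation p = 1 between groups). The second component held 10.4% and its scores were −0.13, −0.33, −0.29 and −0.55 in OPA1KO and 0.29, 0.12, 0.48 and 0.40 in WT libraries, with no overlap (exact permutation p = 0.0286, the smallest possible, and 0.0571 adjusted over both components). WT replicate 2 was the highest library in 292 of 555 chains, while WT replicate 1 was lowest in 181 and OPA1KO replicate 4 in 132. The labels give no batch, and the total counts of these 3 libraries, 6777651, 6426149 and 5929281, lay inside the range of the others. Their TMM factors were 0.947, 1.024 and 1.029, where WT replicate 2 had the lowest and OPA1KO replicate 4 the highest of all libraries. OPA1KO replicate 1, with a score of 0.21, had a factor of 1.018. A technical part in the component was not tested. In WT replicate 2, WT replicate 1 and OPA1KO replicate 4, summed macrophage markers were 65.0, 55.3 and 50.8 CPM. Neutrophil markers were 20.4, 13.5 and 15.9 CPM, and T cell markers 75.3, 62.0 and 49.4 CPM, in the same order. Other libraries lay beyond some of these. WT replicates 3 and 4 had 65.6 and 67.4 CPM for macrophage markers. OPA1KO replicates 1 and 3 had 24.5 and 24.3 CPM for neutrophil markers. For T cell markers, OPA1KO replicate 3 had 75.9 CPM and WT replicate 3 had 57.4 CPM. The part of other cells in the component was not tested.

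The chains with the largest and smallest spread were chosen after their values were seen, and only some of their genes are named here. Among the 20 chains with the largest spread within groups, WT replicate 2 was highest in 18, and WT replicate 1 or OPA1KO replicate 4 was lowest in 19. They included the genes of interleukin 1β and interleukin 1α, Il1b (330, 313, 342 and 208 CPM in OPA1KO and 222, 395, 261 and 310 CPM in WT libraries) and Il1a (241, 243, 250 and 165 CPM in OPA1KO and 172, 313, 202 and 217 CPM in WT). They also included Cebpb, the Src-family kinase gene Fgr, the protein kinase C gene Prkcb, the ectonucleotidase gene Entpd1, the receptors Cd300a and Cd300lb, and the chain at Spn. Whether the genes of either set share a function was not tested. At Ccr1, a receptor gene for inflammatory chemokines, the sums were 247, 244, 264 and 188 CPM in OPA1KO libraries and 300, 512, 227 and 235 CPM in WT libraries. That chain had the largest negative log2 fold change of all chains, and WT replicate 2 was highest by far (−0.43 ± 0.26, edgeR adjusted p = 0.832).

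In the 20 steadiest chains, the highest library exceeded the lowest by 1.08-fold to 1.18-fold. At Cd47, whose protein signals to SIRPα, and Ift57, the sums were 113, 115, 112 and 118 CPM in OPA1KO libraries and 114, 117, 112 and 109 CPM in WT libraries. At Aim2, a sensor of cytosolic DNA, 17 regions were at 229, 224, 214 and 234 CPM in OPA1KO and 240, 231, 228 and 232 CPM in WT libraries, and at Marcks, a membrane-bound regulator of actin, sums were 132, 137, 132 and 135 CPM in OPA1KO and 128, 129, 139 and 140 CPM in WT. Psap, Plbd1, Ptma, Pip4k2a, Tspan14, Tspan32 and Celf2 were also in this group. The within-group standard deviation on the log2 scale was 0.04 at its lowest, 0.15 at the median and 0.41 at its highest over the 555 chains.

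**Figure D5:**
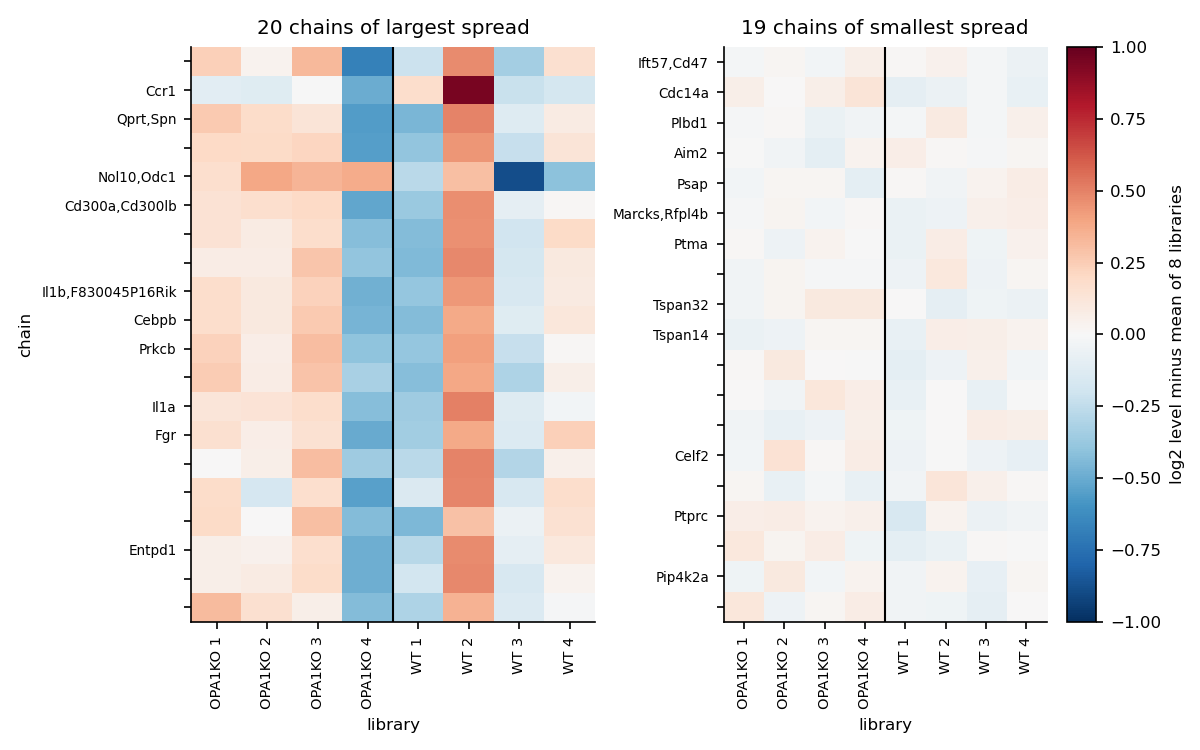
Log2 summed level minus the mean of 8 libraries (colour) for the 20 chains with the largest (left) and 19 of the 20 with the smallest (right) within-group spread, named where the text describes them, with OPA1KO libraries left of the line and WT libraries right of it. On the left, OPA1KO 4 and WT 1 are mostly low and WT 2 is highest in 18 of 20 chains, while no such pattern stands out on the right.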

How the data were processed

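Counts were deposited by the authors as whole numbers per region for 8 libraries, with no normalization, and were used as they stand. Per the submitters' processing notes, the tools included MACS2 2.1.0.20150603, cutadapt 1.9, bedtools, SAMtools and Picard 1.65, on mm10 or GRCm38. Their order and settings, whether read ends were shifted for the transposase, how the common region set was made and whether starts count from 0 or 1 are not given in the sources used here.

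Gene ends came from 21896 protein-coding RefSeq models (GRCm38.p6), which carry no strand or exons. A chain takes the names of the models it overlaps or, if none, of its nearest neighbours. Chain counts were summed and tested inside a partition of the whole table, in which distal regions joined into runs of any length form 1 unit and each other region is a unit. edgeR 4.0.16 (R 4.3.3) was used with filterByExpr, which left 36546 units and 59247 regions, TMM factors (0.947 to 1.03), robust quasi-likelihood fits without covariates, and Benjamini-Hochberg adjustment over all units or regions, with calls at 0.05. Single values per library were compared by two-sided exact permutation over 70 assignments. Libraries of a group differed by more than counting error (chi-square per degree of freedom 2.16 to 4.74 over 12 pairs), so none was a copy of another. That does not show that they came from different animals or pools. Depth limits precision at single regions more than at chains: the median standard error was 0.23 for members and 0.10 for chains.

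Chains named are those with the most regions, the highest levels, the smallest p in each direction and the highest and lowest level per region, and those of the marker and gene lists. The definition of chains, the lists and these rules were chosen with earlier results of these data known. Alternatives were DESeq2 1.42.0 size factors or its test, library totals, limma-voom (limma 3.58.1), no filter or a CPM of at least 5 in 4 libraries, a replicate block, each library left out, chain sums alone, gaps of 10000 or 15000 bp, 10 regions, 2 kb from gene ends and, chosen after seeing the data, chains without their highest region. Sequences of regions away from promoter windows were not analysed here. Results at a few genes are not reported here.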

Additional observations from a re-analysis of the deposited data

Results flagged for a closer look

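Among 76 groups of 4 libraries tested for a library far from the other 3 of its group by Dixon's criterion, 3 chains showed one, and chance gives about 1 in 20 groups. At Dse, WT replicate 2 was at 42.9 CPM, far below the other WT libraries. At Itgam, WT replicate 1 was at 60.8 CPM, far below the other WT libraries. Between Cd44 and Pdhx, WT replicate 2 was at 394 CPM, far above the other WT libraries.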

How the results depend on the processing

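The count of 0 called chains held under 12 of the 13 planned or added settings that kept all libraries, and was 1 where distal meant over 2 kb from gene ends (the Il10 chain). The setting of at least 10 regions kept the main fit and only dropped shorter chains. Its count of 0 therefore followed from the main result and adds nothing to it. The number of chains fell to 334 with gaps of at most 10000 bp and 278 with at least 10 regions, and the chains at an unadjusted p under 0.05 then numbered 12 and 9 (6.72% and 6.73% of all units). DESeq2 called 2 members. With 1 library left out, chains called ranged from 0 to 2, chains at an unadjusted p under 0.05 from 17 to 62 (5.59% to 9.29% of all units), members called from 0 to 3, and the difference in the share of counts from −0.020 to 0.45 percentage points. The upper ends came without WT replicate 2, and the median log2 fold change of chains was 0.07 without it and −0.02 without WT replicate 1. Same-numbered libraries did not deviate together (correlations −0.60, 0.17, −0.51 and −0.39 over chains). The labels do not say whether the numbers pair libraries. These correlations rest on deviations that ran mostly along the first component, so they cannot settle it. With the replicate block 0 chains were called and 16 had an unadjusted p under 0.05 (5.49% of all units). Of 37 chains followed through all settings, 22 kept their direction, of which 11 moved by over 1.5 times when 1 library was left out (7 of them without WT replicate 2) and 4 without their highest region. Sign changed in 15 with small values: with 1 library left out, log2 fold changes ranged from −0.12 to 0.14 at Acod1, −0.094 to 0.13 at Bcl9l and Cxcr5, −0.088 to 0.18 at Cebpb, −0.033 to 0.058 at Chd2, −0.12 to 0.089 at Haao and Zfp36l2, −0.060 to 0.14 at Irf2bp2 and Tomm20, −0.14 to 0.051 at Lrrfip1, −0.043 to 0.19 at Pik3ap1, −0.056 to 0.10 at Rin3, −0.12 to 0.083 at Sirpa, −0.037 to 0.16 at Smndc1 and Dusp5, −0.075 to 0.026 at Stil to Pdzk1ip1, −0.080 to 0.053 at Stk11 to Cirbp, −0.051 to −0.00016 at Tnfaip3 and Olig3, −0.093 to 0.13 at Zswim4. With all libraries, library totals gave 0.00046 at Acod1 and 0.020 at Zswim4, limma-voom 0.0076 and the block 0.0085 at Zswim4, and sums without the highest region 0.019 at Acod1, −0.024 at Chd2, and 0.064 near Tnfaip3. The causes were not tested. Standard errors at the highest chains lay on both sides of the median of 0.10. They were 0.12 at Irf2bp2 and Tomm20 and 0.19 at Cebpb, but 0.084 at Chd2, 0.090 at Stk11 to Cirbp and 0.084 at Ier5.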
